A study of Mus musculus with 6 samples.

Results

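The genes described here encode the machinery that builds ribosomes. They were followed in mouse bone marrow-derived macrophages (BMMs), the precursors from which osteoclasts form. The set is a list of 40 genes named for a known part in ribosome biogenesis. The rule for membership used names and not values, but the list was drawn up with earlier results of these data known. Of these, 38 had a probe set (a group of array probes summarised to 1 value) that the platform annotation pairs with that gene alone, out of 19938 such genes on the array. *Npm3* and *Noc2l* had no such probe set and were not analysed here. Where a gene had several, as *Fbl* and *Wdr12* did, the one with the highest mean over the 6 arrays was used.

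Ribosomes are built mainly in the nucleolus. RNA polymerase I transcribes a long ribosomal RNA precursor there, which small nucleolar ribonucleoproteins (snoRNPs) modify at chosen bases and which a large cast of assembly factors folds and cuts, while ribosomal proteins join. Box C/D particles methylate the RNA, box H/ACA particles turn uridine into pseudouridine, and separate sets of factors complete the small and the large subunit. The work takes up much of a growing cell's transcription, and the transcription factor Myc is well known for driving it.

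The 3 RANKL + rGDF11 arrays held RNA of BMMs grown for 24 h in 100 ng per ml M-CSF, 50 ng per ml RANKL and 100 ng per ml recombinant GDF11 (rGDF11), a secreted protein of the TGF-β family. The 3 RANKL alone arrays held RNA of BMMs grown the same way with vehicle in place of rGDF11. M-CSF keeps macrophages alive and RANKL turns them into osteoclasts, and both groups received both. The cells came from tibial marrow of mice aged 9 weeks per the labels. The study's methods give an age of 6 to 9 weeks for the donors of BMMs and name female C57BL animals. The labels call the replicates biological but do not say whether they came from separate mice, and the p-values then cover just the spread among these 6 samples, which may be technical.

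Arrays of 1 group correlated at 0.997 to 0.998 over the tested probe sets and arrays of different groups at 0.989 to 0.991, and the median log2 value ran from 6.11 to 6.18. The cells carried macrophage markers, with 4 of 8 lower with rGDF11 and none higher, and a mean log2 level of 11.64 to 11.69 on the RANKL + rGDF11 arrays and 11.94 to 11.97 on the RANKL alone arrays. Of 8 osteoclast markers, 6 were higher and none lower, with array means of 8.29 to 8.38 with rGDF11 and 7.33 to 7.35 with RANKL alone. Among 25 markers of T cells, B cells, neutrophils, erythroid, stromal and endothelial cells, 5 were higher and 2 lower. The array means of the neutrophil list were 6.45 to 6.56 with rGDF11 and 6.22 to 6.28 with RANKL alone, and those of the stromal list 5.90 to 6.11 with rGDF11 and 5.61 to 5.79 with RANKL alone. The B cell and endothelial lists lay lower with rGDF11, at 4.66 to 4.79 and 5.57 to 5.60, than with RANKL alone, at 4.93 to 4.98 and 5.65 to 5.69, and the T cell and erythroid lists overlapped. The values hold no detection call, so a low level cannot be told apart from background. The part that the mixture of precursors and osteoclasts plays in the values below was not tested, and in such bulk samples fewer cells of a type cannot be told apart from less RNA per cell. The values were normalised between arrays, and a change common to all genes would not show in them. The arrays read RNA alone, so levels of proteins and of ribosomes were not measured.

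Ribosome biogenesis genes were higher in BMMs given rGDF11. Of the 38 measured, 22 rose, none fell and 16 did not pass the test (limma, adjusted p under 0.05 over 23410 probe sets with at least 1 gene symbol). Over all tested probe sets 7.31% were called higher and 8.64% lower, and among those brighter than the median, to which all 38 belonged, 12.1% were called higher. The median log2 fold change of the members was 0.32, against 0.03 over all genes, and 37 of 38 had a value above 0. The changes were small to moderate, from −0.01 for *Pes1* to 0.84 for *Rrp1b*. In 34 of 38 members every RANKL + rGDF11 array lay above every RANKL alone array, an arrangement found in 16.4% of tested probe sets. *Npm1*, *Ddx10*, *Wdr12* and *Pes1* were the 4 whose groups overlapped. At the threshold of the study's methods, a fold change of 1.5 with an unadjusted p under 0.01, 6 members were higher, and 2.06% of all probe sets were. The p used here came from limma and not from the study's own test.

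The count of 22 moved with the processing more than the fold changes did. It was 12 without RANKL alone replicate 1, 13 without RANKL + rGDF11 replicate 2, 14 with every deposited probe set tested and 14 with the methods' t-test, where 5.61%, 5.80%, 4.44% and 5.44% of all probe sets tested were called higher. It was 33 when the fit kept the brighter probe sets alone, 31 with a variance trend and robust fit and 30 after quantile normalisation, where those shares were 17.9%, 9.72% and 8.61%.

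Seen array by array, the members split by group. This is the contrast above in another form, and whether members vary together within a group was not tested. The median deviation of the members from their own mean over the 6 arrays was 0.12, 0.20 and 0.17 on the log2 scale on the RANKL + rGDF11 arrays, against −0.21, −0.11 and −0.15 on the RANKL alone arrays. No RANKL + rGDF11 array came near a RANKL alone array in this measure. On the RANKL + rGDF11 arrays 35, 38 and 34 members lay above their own mean, and on the RANKL alone arrays 1, 5 and 1 did. Over all tested probe sets the same median deviation stayed between −0.02 and 0.02 on each array.

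**Figure D1:**
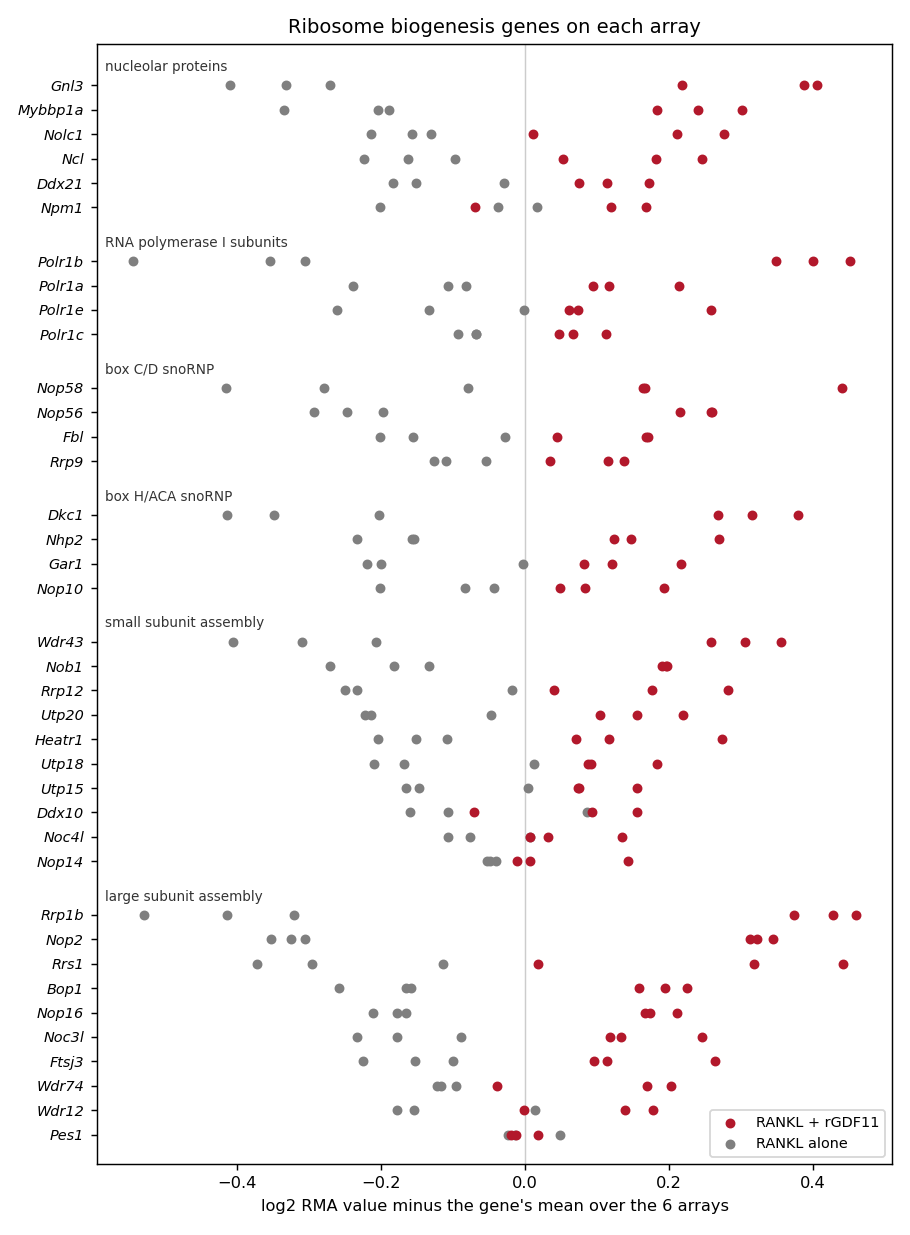
Each row is 1 of the 38 measured genes, grouped by role, and each point 1 array (3 per group, RANKL + rGDF11 in red and RANKL alone in grey), placed by its log2 value minus the gene's mean over the 6 arrays. In 34 rows the red points all lie to the right of the grey ones, and *Npm1*, *Ddx10*, *Wdr12* and *Pes1* are the rows where they mix.

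The genes of nucleolar proteins were led by *Gnl3*, which encodes nucleostemin, a GTP-binding protein of the nucleolus in proliferating and stem cells. *Gnl3* read 9.15, 9.31 and 9.33 on the log2 scale on the RANKL + rGDF11 arrays and 8.60, 8.66 and 8.52 on the RANKL alone arrays. The groups were far apart, with means of 9.26 ± 0.10 and 8.59 ± 0.07 (SD, n = 3 each), a log2 fold change of 0.67 (SE 0.08), a fold of 1.596 and a limma adjusted p of 0.000811. *Mybbp1a*, which encodes a nucleolar protein first found as a partner of the factor Myb, read 10.05, 10.17 and 10.11 with rGDF11 and 9.53, 9.66 and 9.68 with RANKL alone. All 3 rGDF11 values of *Mybbp1a* were above the other 3, with a log2 fold change of 0.48 (SE 0.07) and an adjusted p of 0.00257.

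The genes of nucleolin and its neighbours moved less. *Ncl*, the gene of nucleolin, read 11.28, 11.34 and 11.15 with rGDF11 and 10.93, 11.00 and 10.87 with RANKL alone, a log2 fold change of 0.32 with an adjusted p of 0.0224. *Nolc1*, whose product shuttles between the nucleolus and the Cajal bodies and binds both kinds of snoRNP, had a log2 fold change of 0.33 and an adjusted p of 0.0297. *Ddx21*, an RNA helicase that works with RNA polymerase I, had 0.24 with an adjusted p of 0.0508, just outside the threshold, and its groups did not overlap. *Npm1*, the gene of the histone chaperone nucleophosmin, read 11.05, 11.00 and 10.81 with rGDF11 and 10.68, 10.90 and 10.84 with RANKL alone. The third rGDF11 array of *Npm1* lay below the highest RANKL alone arrays, and its log2 fold change of 0.15 had a 95% interval of −0.06 to 0.36 (adjusted p 0.358). The 3 probe sets that the annotation pairs with both *Npm1* and *Gm15484* had log2 fold changes of 0.01, 0.01 and 0.04, so the value of *Npm1* is uncertain. In all, 4 of the 6 measured genes of nucleolar proteins rose, with a median log2 fold change of 0.33.

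Among the members RNA polymerase I was represented by the genes of 4 of its subunits, of which that of the second largest rose most. *Polr1b*, which encodes that subunit, read 10.12, 10.17 and 10.07 with rGDF11 and 9.18, 9.37 and 9.42 with RANKL alone. Its lowest rGDF11 value was well above its highest RANKL alone value, and the means were 10.12 ± 0.05 and 9.32 ± 0.13 (SD, n = 3 each). The log2 fold change of *Polr1b* was 0.80 (SE 0.08), a fold of 1.74, with an adjusted p of 0.000412. *Polr1a*, which encodes the largest, catalytic subunit, read 8.94, 8.92 and 9.03 with rGDF11 and 8.58, 8.71 and 8.74 with RANKL alone. This was a smaller shift with no overlap, a log2 fold change of 0.28 and an adjusted p of 0.0311.

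*Polr1c* and *Polr1e*, the other members that encode RNA polymerase I subunits, kept their groups apart without passing the test. *Polr1c*, a subunit shared with RNA polymerase III, read 9.00, 9.02 and 9.06 with rGDF11 and 8.86, 8.88 and 8.88 with RANKL alone. Its log2 fold change was 0.15, with a 95% interval of 0.02 to 0.29 and an adjusted p of 0.132. *Polr1e*, specific to RNA polymerase I, had a log2 fold change of 0.26 and an adjusted p of 0.0979.

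In the core of the box C/D snoRNP the genes of the paired scaffold proteins were higher. *Nop58* read 8.94, 9.22 and 8.94 with rGDF11 and 8.50, 8.70 and 8.36 with RANKL alone. Its replicates scattered more than those of most members but did not overlap, and the log2 fold change was 0.51 with an adjusted p of 0.0177. *Nop56*, the partner of *Nop58* in the particle, read 11.29, 11.34 and 11.33 with rGDF11 and 10.88, 10.83 and 10.78 with RANKL alone. Both groups were tight, with means of 11.32 ± 0.03 and 10.83 ± 0.05 (SD, n = 3 each), a log2 fold change of 0.49 and an adjusted p of 0.00119.

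*Fbl*, the gene of fibrillarin, which carries out the methylation, had a log2 fold change of 0.26 with an adjusted p of 0.0535, and a second probe set of the gene gave 0.28 with an adjusted p of 0.126. *Rrp9*, whose product binds the box C/D RNA that guides early cleavage of the precursor, read 7.75, 7.83 and 7.86 with rGDF11 and 7.59, 7.61 and 7.67 with RANKL alone. The groups of *Rrp9* were apart by a narrow margin, with a log2 fold change of 0.19 and an adjusted p of 0.0800.

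In the box H/ACA snoRNP the gene of the enzyme rose most. *Dkc1*, the gene of dyskerin, the pseudouridine synthase that also stabilises telomerase RNA, read 9.64, 9.75 and 9.69 with rGDF11 and 9.02, 9.17 and 8.96 with RANKL alone. The means were 9.69 ± 0.06 and 9.05 ± 0.11 (SD, n = 3 each), with a log2 fold change of 0.64, a fold of 1.56 and an adjusted p of 0.000958. Its partner *Nhp2* read 9.62, 9.65 and 9.77 with rGDF11 and 9.27, 9.34 and 9.35 with RANKL alone. All rGDF11 values of *Nhp2* were the higher ones, with a log2 fold change of 0.36 and an adjusted p of 0.00902.

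The genes of the remaining core proteins of that particle did not pass the test. *Gar1* had a log2 fold change of 0.28 with an adjusted p of 0.0528. *Nop10*, the smallest of the core proteins, read 10.56, 10.67 and 10.52 with rGDF11 and 10.27, 10.39 and 10.43 with RANKL alone. The *Nop10* groups did not overlap, and its log2 fold change of 0.22 had an adjusted p of 0.0882.

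Of 10 small subunit assembly genes 5 rose, with a median log2 fold change of 0.27. *Wdr43*, which encodes a component of the complex that assembles on the nascent precursor, read 9.70, 9.80 and 9.75 with rGDF11 and 9.14, 9.24 and 9.04 with RANKL alone. The groups were widely separated, with means of 9.75 ± 0.05 and 9.14 ± 0.10 (SD, n = 3 each), a log2 fold change of 0.61 and an adjusted p of 0.000978. *Nob1*, the gene of the endonuclease that makes the last cut in the small subunit RNA, read 9.58, 9.57 and 9.58 with rGDF11 and 9.20, 9.11 and 9.25 with RANKL alone. The rGDF11 values of *Nob1* were almost identical to each other and all higher, with a log2 fold change of 0.39 and an adjusted p of 0.00455.

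*Rrp12*, *Utp20* and *Heatr1*, large repeat proteins of the early and late small subunit precursor, had log2 fold changes of 0.33, 0.32 and 0.31 with adjusted p of 0.0474, 0.0218 and 0.0270. *Utp18*, *Utp15*, *Ddx10*, *Noc4l* and *Nop14* were not called. Among them *Utp18* had the lowest adjusted p, 0.0790, at a log2 fold change of 0.24. *Nop14*, which pairs with *Noc4l* in the same precursor, read 8.47, 8.61 and 8.46 with rGDF11 and 8.43, 8.42 and 8.42 with RANKL alone. Here the groups were close but apart, 1 rGDF11 array standing above the others, and the log2 fold change of 0.09 had a 95% interval of −0.06 to 0.25 (adjusted p 0.424).

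The large subunit assembly genes held the largest change of all members. *Rrp1b*, whose product is a nucleolar partner of a protein phosphatase and joins early large subunit precursors, read 8.26, 8.23 and 8.18 with rGDF11 and 7.28, 7.39 and 7.48 with RANKL alone. No RANKL alone array approached the rGDF11 range, and the means were 8.22 ± 0.04 and 7.38 ± 0.10 (SD, n = 3 each). The log2 fold change of *Rrp1b* was 0.84 (SE 0.07), a fold of 1.79, with an adjusted p of 0.000202. *Nop2*, the gene of a methyltransferase of the large subunit RNA and a long-used proliferation antigen, read 10.27, 10.28 and 10.30 with rGDF11 and 9.65, 9.60 and 9.63 with RANKL alone. It had the tightest replicates of the leading genes, with means of 10.28 ± 0.02 and 9.63 ± 0.02 (SD, n = 3 each), a log2 fold change of 0.65, a fold of 1.57 and an adjusted p of 0.000207.

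In this group 7 of 10 measured genes rose, with a median log2 fold change of 0.35. The others called were *Rrs1* (log2 fold change 0.52), *Bop1* (0.39), *Nop16* (0.37), *Noc3l* (0.33) and *Ftsj3* (0.32), with adjusted p of 0.00390 to 0.0229. *Bop1*, *Pes1* and *Wdr12* encode the members of PeBoW, a trimeric complex that large subunit RNA processing needs. *Bop1* rose, and *Wdr12* had a log2 fold change of 0.21 with an adjusted p of 0.136, with overlapping groups and 0.30 (adjusted p 0.112) in its other probe set. *Pes1* read 9.18, 9.21 and 9.18 with rGDF11 and 9.24, 9.17 and 9.18 with RANKL alone. The values of *Pes1* were mixed between the groups, with a log2 fold change of −0.01, a 95% interval of −0.14 to 0.13 and an adjusted p of 0.952. Whether members of PeBoW differed from each other was not tested.

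**Figure D2:**
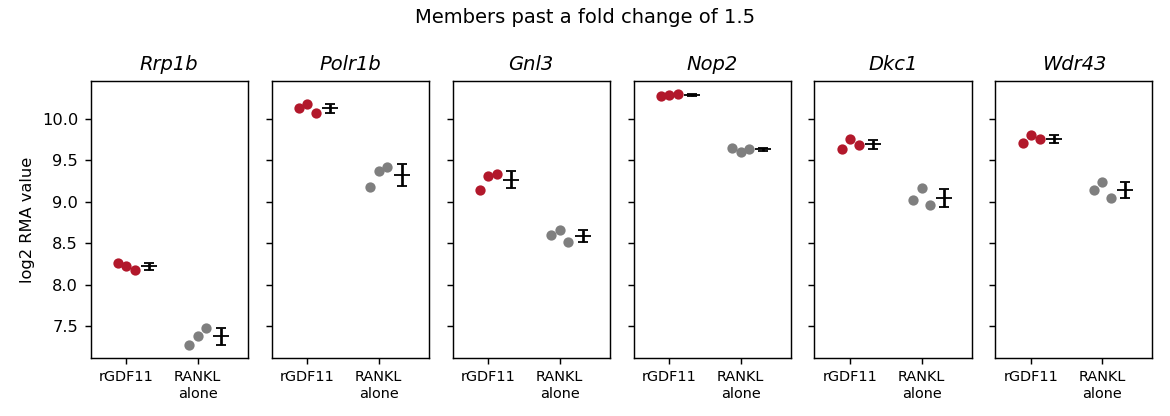
Log2 values of the 6 genes past the fold change of 1.5, with 1 panel per gene, 1 point per array (RANKL + rGDF11 in red on the left, RANKL alone in grey on the right) and the mean with its SD beside each group of 3. In each panel all red points lie above all grey points, by the widest margin for *Rrp1b* and *Polr1b*.

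**Figure D3:**
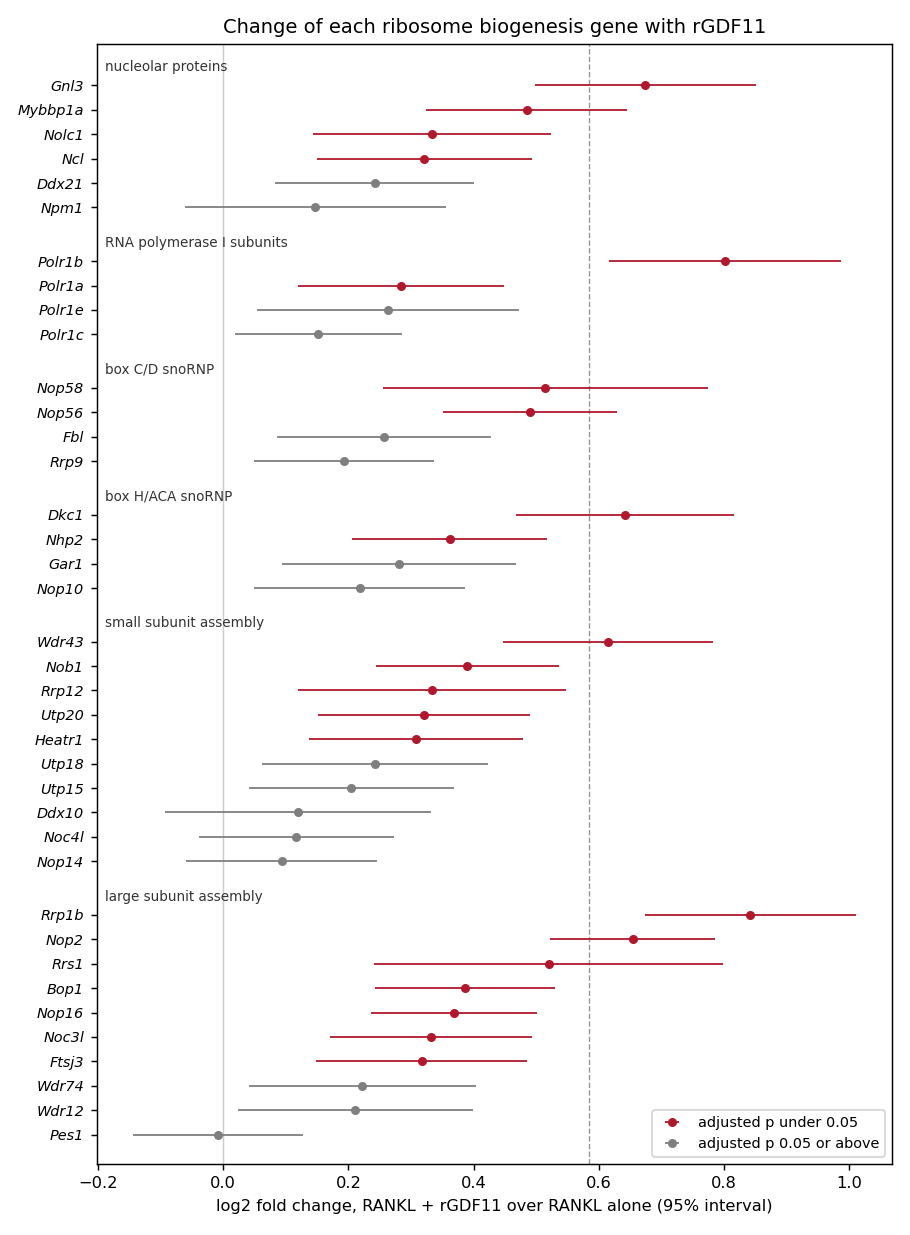
Log2 fold change of RANKL + rGDF11 over RANKL alone for each of the 38 measured genes with its 95% interval from limma, in red where the adjusted p was under 0.05, and a dashed line at a fold of 1.5. The points of 37 genes lie right of 0, and *Pes1* lies at −0.01.

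*Myc* itself was among the genes that rose. It read 11.09, 11.19 and 11.08 with rGDF11 and 9.80, 10.02 and 10.01 with RANKL alone, a log2 fold change of 1.18 (SE 0.08), a fold of 2.26 and an adjusted p of 6.31e-05. *Max*, the partner that Myc needs to bind DNA, had a log2 fold change of 0.02 with an adjusted p of 0.911. Of the 11 genes of the Myc network listed, *Myc* and *Mga* rose, 5 were not called and 4 fell, among them *Mycl* and *Mxd1*, both at a log2 fold change of −0.49. The products of *Mxd1* and *Mxd4* compete with Myc for Max and repress transcription. The list also holds *Mxd3*, *Mxi1* and *Mnt*, whose products do the same and whose values are not given here. *Mxd4* had a log2 fold change of −0.44 and *Mlx*, which encodes a related partner protein, −0.27. The median log2 fold change of the 11 genes was −0.08. Whether *Myc* or any other gene of the network plays a part in the changes of the members was not tested.

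Myc and Max are known to bind the E-box CACGTG, and promoters of the members were read for it. RefSeq promoter sequences (GRCm38.p6), from 250 bases before to 50 after the annotated start, were at hand for 33 of the 38 members, 36 promoters in all, with no entry for *Bop1*, *Fbl*, *Npm1*, *Rrp12* and *Rrs1*. CACGTG, which is the same on both strands, was in 16.7% of the members' promoters, in 10.4% of the promoters of genes brighter than the median and in 7.15% of all promoters. The 6 genes are shown because they are all the members with the motif, and they include both called and uncalled genes. Each line gives the gene and up to 12 bases on either side of the E-box, which is in capitals, on the gene's own strand and ending where the window ends.
Nop2: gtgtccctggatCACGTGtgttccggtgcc
Utp20: cggcactaactaCACGTGaggaaaa
Pes1: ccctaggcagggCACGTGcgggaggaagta
Mybbp1a: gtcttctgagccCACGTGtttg
Utp18: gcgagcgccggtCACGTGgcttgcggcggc
Wdr43: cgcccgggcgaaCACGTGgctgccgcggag

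Counting the annotated start as base 1, the E-box of *Nop2* began at −60 (chr6:125131811-125131840, plus strand) and that of *Utp18* at −20 (chr11:93885769-93885798, minus strand). The others lay just after the start, in *Pes1* at 3 (chr11:3963965-3963994, plus), in *Wdr43* at 18 (chr17:71616220-71616249, plus), in *Utp20* at 38 (chr10:88826765-88826789, minus) and in *Mybbp1a* at 41 (chr11:72441355-72441376, plus). The coordinates are those of the printed bases. *Nop2*, *Wdr43*, *Mybbp1a* and *Utp20* were called higher, with log2 fold changes of 0.65, 0.61, 0.48 and 0.32. *Utp18*, at 0.24, and *Pes1*, at −0.01, were not. Of all 33 members with a promoter sequence 19 were called higher and 14 were not, so the 4 of 6 here lay near the share among them. *Rrp1b* and *Polr1b*, the members that changed most, had no CACGTG in the window. A match is a run of letters and not a measured binding site.

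Other motifs were read the same way. The ETS motif CCGGAAGT was in 16.7% of the members' promoters, the same share as CACGTG, in 8.78% of those of brighter genes and in 3.89% of all, and 2 of its 6 genes were called. The related E-box CACGCG was in 30.6% of the members' promoters on either strand, 17.5% of those of brighter genes and 9.27% of all. Of its 11 genes 4 were called and 7 were not. The GC box GGGCGG, which binds Sp1, was in 69.4%, 63.9% and 35.7% of the same promoters, and TATAAA in 5.56%, 6.70% and 13.6%. Of the 25 genes with the GC box 15 were called and 10 were not. The AP-1 motif TGANTCA was in none of the 36, in 5.0% of those of brighter genes and in 7.81% of all.

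Beyond the 38 genes, 86 other genes of ribosome biogenesis were measured. Of these 28 rose and 2 fell, with a median log2 fold change of 0.16. The largest increases were in *Taf1d*, a subunit of the factor that places RNA polymerase I at its promoter, and in *Tsr1*, a small subunit maturation factor. *Taf1d* read 11.55, 11.50 and 11.53 with rGDF11 and 10.83, 10.98 and 10.81 with RANKL alone, a log2 fold change of 0.66 with an adjusted p of 0.000517. *Tsr1* had a log2 fold change of 0.63 and an adjusted p of 0.00212. *Ddx24*, an RNA helicase, and *Ttf1*, which ends RNA polymerase I transcription, fell by 0.42 and 0.27 on the log2 scale, with adjusted p of 0.00513 and 0.0480. By role, 13 of 41 other small subunit factors rose and none fell. Of 34 other large subunit factors 14 rose and 1 fell, and of 11 other genes of the RNA polymerase I machinery 1 rose and 1 fell. Genes of further RNA polymerase I subunits were among those 11, of which 9 were not called.

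Related machines were measured as well. Of 13 genes of the RNA exosome, which trims the precursor, 3 rose, led by *Exosc1* with a log2 fold change of 0.37, and the median was 0.14. Of 9 genes specific to RNA polymerase III, which makes transfer RNA and the smallest ribosomal RNA, *Polr3g* (0.61) and *Polr3e* (0.44) rose, and the median was 0.10. Of 18 measured genes on a list of translation factors, only *Eef1e1*, listed by its symbol, was called higher, with a log2 fold change of 0.35.

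The genes of the ribosomal proteins, which the assembly factors put together, were not called in either direction. For 53 of 76 there was a probe set of their own, with a median log2 fold change of 0.01 and a range of −0.23 to 0.41, and 0 were called higher or lower by limma, while 4 were higher and 4 lower at an unadjusted p under 0.05. These probe sets were among the brightest on the array, with a median log2 level of 11.4. Of the 882 tested probe sets at or above that level, 42 were called higher and 84 lower. Many ribosomal protein genes have near-identical processed copies, so their probe sets are uncertain. Of 14 measured proliferation genes 0 were called by limma, with 2 higher at an unadjusted p under 0.05, a median log2 fold change of 0.07, and array means of 10.75 to 10.80 with rGDF11 and 10.71 to 10.74 with RANKL alone.

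**Figure D4:**
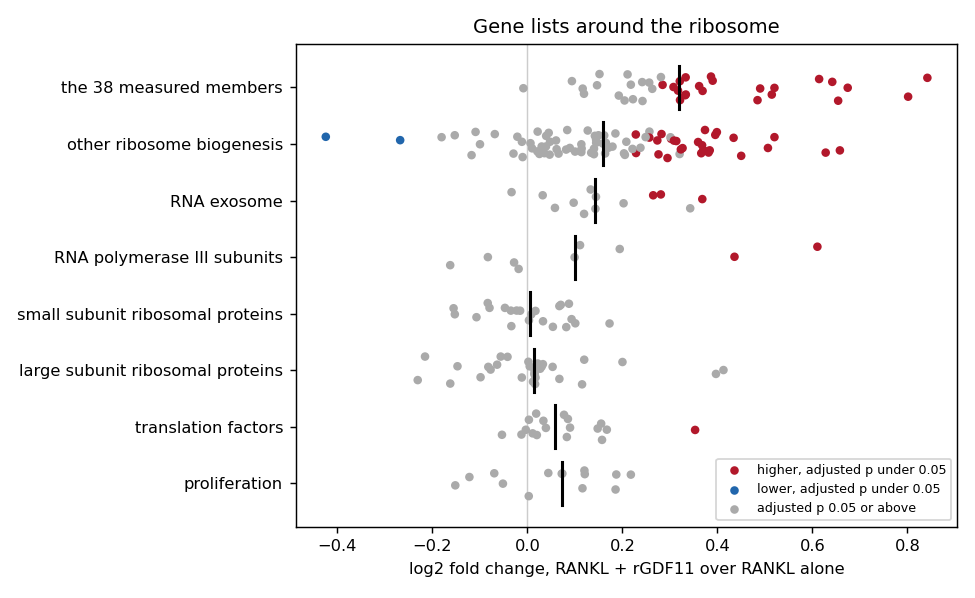
Log2 fold change of RANKL + rGDF11 over RANKL alone for each gene (point) of the listed groups, with the median of each group as a black bar. The points of the 38 members have the rightmost median, 0.32, the other ribosome biogenesis genes follow at 0.16, and the ribosomal protein genes lie around 0 with no coloured point.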

How the data were processed

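RNA from 6 BMM cultures (3 RANKL + rGDF11, 3 RANKL alone) was read on the Affymetrix Mouse Gene 1.0 ST platform. The authors normalised the raw intensities by robust multichip average in Affymetrix software (Expression Console, its version not given in the sources used here, and version 3.0 of the Transcriptome Analysis Console) and deposited log2 values for 35556 probe sets. The values hold no detection call, and the number of arrays limits the precision. Probe sets were named from the platform annotation, 21789 with 1 symbol, 1621 with several and 12146 with none. Every probe set with a symbol (23410) entered 1 limma fit (version 3.58.1, R 4.3.3) by lmFit with eBayes, two-sided and without covariates, with Benjamini-Hochberg adjustment over all of them, and a call was an adjusted p under 0.05. The fit was tested on simulated data.

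Members given with values per array were, in each role group, the pair with the largest and the one with the smallest absolute change, and every gene past the methods' threshold. *Ncl* was added after its values were seen. Of the other lists *Myc* and at most the 2 largest changes in each direction were named, with *Max*, *Mxd4*, *Mlx* and *Mga* added afterwards. The small nucleolar RNAs and their host genes, and those of them given with values, were chosen after their values were seen. The members and lists were chosen with earlier results of these data known. Alternatives were the rows tested, a brightness filter, quantile normalisation, median centring, a variance trend with a robust fit, a replicate block, the methods' t-test, the probe set chosen per gene, stricter thresholds and each array left out in turn.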

Additional observations from a re-analysis of the deposited data

How the results depend on the processing

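Under 15 alternatives 37 of the 38 members kept a log2 fold change above 0, and no member was called lower. Their median log2 fold change stayed between 0.28 and 0.34. Of the 22 called members 12 were called in every alternative (*Bop1*, *Dkc1*, *Gnl3*, *Mybbp1a*, *Nhp2*, *Nob1*, *Nop16*, *Nop2*, *Nop56*, *Polr1b*, *Rrp1b* and *Wdr43*), 10 lost the call in at least 1, 11 of those not called gained it in at least 1, and 5 were called in none. The number called higher was 14 with all probe sets tested, 14 with the methods' t-test, and 12 at an adjusted p under 0.01. The share of all probe sets at that stricter threshold was not computed. With 1 array left out the number ran from 12 (without RANKL alone replicate 1) to 19, with 13 without RANKL + rGDF11 replicate 2. In those fits 4.82% to 5.80% of all tested probe sets were called higher. The number of members was 33 among brighter probe sets, 31 with a variance trend and robust fit and 30 after quantile normalisation. The cause of these moves was not tested, and both the variance estimates and the number of rows adjusted over changed where other rows were fitted. At a fold change of 2 the number past the methods' threshold was 0, and the share of all probe sets there was not computed. With the replicate number as a block (replicate block) 22 were called, and 7.16% of all tested probe sets were called higher. Deviations of same-numbered arrays correlated with r of 0.06, 0.33 and −0.000832 over all tested probe sets. For differently numbered arrays r ran from −0.32 to 0.27. With 3 arrays per group these values cannot tell whether the numbers pair the arrays. *Pes1* turned to 0.0236 under quantile normalisation and ran from −0.0219 to 0.0141 with 1 array left out. Over all tested probe sets 1712 were called higher, against 1129 without RANKL + rGDF11 replicate 1.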

Other observations

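The array also carries probe sets for small nucleolar RNAs, the guides that the snoRNP proteins above bind. They were picked by symbol after values of these data had been seen, and a probe set for a short intronic RNA can also read the precursor of its host gene. Of 54 measured, 28 were higher with rGDF11, 1 was lower (*Snord118*, log2 fold change −0.41) and 25 were not called, with a median log2 fold change of 0.37. Among box H/ACA RNAs 14 of 20 were higher (median 0.44), and among box C/D RNAs 12 of 31 were higher and 1 lower (median 0.31). *Snora75*, which lies within *Ncl*, read 7.36, 7.61 and 7.59 with rGDF11 and 6.37, 6.60 and 6.58 with RANKL alone, a log2 fold change of 1.002 with an adjusted p of 0.000373. *Ncl* itself changed by 0.32. *Snord82*, also within *Ncl*, had a log2 fold change of 0.31 with an adjusted p of 0.144 and overlapping groups. *Snord53*, within *Wdr43*, had a log2 fold change of 0.40 with an adjusted p of 0.0484, while *Wdr43* rose by 0.61. *Snord57*, within *Nop56*, had a log2 fold change of −0.20 with an adjusted p of 0.146, while *Nop56* rose by 0.49.

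By the RefSeq gene table, 21 of these RNAs lie within ribosomal protein genes. Of the 21, 12 were higher and none lower, with a median log2 fold change of 0.40, whereas 0 of 53 measured ribosomal protein genes were called by limma, 4 being higher and 4 lower at an unadjusted p under 0.05. These 53 genes were not matched to the genes that hold the 21 RNAs, and some of those may not be among them. The difference between the RNAs and the genes around them was not tested. *Snora33*, within *Rps12*, read 6.84, 6.86 and 6.88 with rGDF11 and 6.05, 6.24 and 6.01 with RANKL alone (adjusted p 0.000412). Of 6 host genes that encode no protein and are known for the small nucleolar RNAs in their introns, 5 were higher. *Gas5* read 10.06, 10.20 and 10.25 with rGDF11 and 9.41, 9.55 and 9.24 with RANKL alone, a log2 fold change of 0.77 with an adjusted p of 0.00122, and *Snhg5* had a log2 fold change of 0.80 with an adjusted p of 0.000193. *Snhg11*, at 0.11, was not called.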
